A study of Mus musculus with 6 samples.

Results

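The complement system of aged skeletal muscle was examined here through 9 genes, namely the C1q chains C1qa, C1qb and C1qc, the classical and lectin pathway components C4b and C2, the common component C3, the alternative pathway genes Cfb and Cfp, and the inhibitor Serping1. They were found by matching the accession of each non-control probe to a mouse gene symbol, which gave 11 probes. All 9 genes were among the 20900 genes tested, and each was well above background on all 6 arrays. Gene expression had been measured in gastrocnemius, a calf muscle, of male C57BL/6J mice that were 13 weeks old (young mice, n = 3) or 26 months old (aged mice, n = 3), with no treatment or genetic change named, and by hybridizing the RNA of each mouse to its own single-colour Agilent array. The question was how the muscle of aged mice differs from that of young mice.

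Complement is a cascade of proteins that tags cells, debris and microbes for removal. C1q, assembled from the products of C1qa, C1qb and C1qc, opens the classical pathway, in which C4 and C2 form the enzyme that cleaves C3. Factor B (Cfb) and properdin (Cfp) belong to the alternative pathway, which amplifies C3 cleavage, and C1 inhibitor (Serping1) blocks the proteases that start the classical pathway. The liver supplies most complement of the plasma, whereas C1q is made chiefly by macrophages and related cells, and many tissues make C3 and C4 locally.

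Signals are given as log2 values relative to the 75th percentile of the array, so that 0 is that percentile, and they cannot be compared between genes because each probe has its own brightness. The 75th percentile over all probes ranged from 209.5 to 299.9 intensity units in young mice and from 270.8 to 310.7 in aged mice. Between 48.7% and 53.8% of probes exceeded background clearly enough to be marked as well above it, and no probe was saturated. All arrays were on 1 slide, with the 3 young mice and aged mouse 1 in row 1 and aged mice 2 and 3 in row 2. At an adjusted p under 0.05 (limma, Benjamini-Hochberg over all genes tested), 41 genes had a higher signal in aged mice and 12 a lower one. This number of 53 changed when a mouse was left out, to 9, 8 and 8 without young mouse 1, 2 or 3 and 199, 9 and 1 without aged mouse 1, 2 or 3. The drops cannot be told apart from the loss of power with fewer mice. Without aged mouse 1, all young mice were in row 1 and all aged mice in row 2. Age and row thus cannot be told apart in the 199. Of 10 skeletal muscle fibre genes, 9 had a matched probe and were well above background on every array, among them parvalbumin (Pvalb).

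The mean signal of all 9 complement genes was higher in aged mice, where 43.1% of all genes tested were higher. C4b (4.23-fold, 95% interval from limma 2.49 to 7.17) and Cfb (3.18-fold, 1.82 to 5.55) differed most. They were followed by C1qb (1.85-fold, 1.40 to 2.44), C3 (1.81-fold, 1.31 to 2.52) and C1qc (1.47-fold, 1.15 to 1.87). The intervals of C1qa (1.30-fold, 0.970 to 1.74), Serping1 (1.15-fold, 0.827 to 1.60), C2 (1.14-fold, 0.874 to 1.49) and Cfp (1.12-fold, 0.718 to 1.75) included no change. For 6 of the 9 genes every aged mouse was above every young mouse, where 7.92% of all genes tested had that pattern. None of the 9 genes passed the adjusted threshold in limma (0 of 9, where 0.196% of all genes were called higher and 0.0574% lower), and 5 of 9 had an unadjusted p under 0.05 and were higher, where 6.07% of all genes were. The 9 genes were chosen with earlier results of these data known, so that counts beside these shares, here and below, are description and no test. The median log2 change of the 9 genes was 0.55, and that of all genes was -0.06. On simulated arrays with the spread of these mice, 200 of 20900 genes were changed by the same amount. The test recovered 0% of genes changed by 1 on the log2 scale and 73% of those changed by 2. These shares depend on how many genes change and by how much, which is not known for these mice. The change was under 1 for all of the 9 genes except C4b and Cfb. With so few mice, the smallest p that an exact permutation test (two-sided) allows is 0.1.

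**Figure D1:**
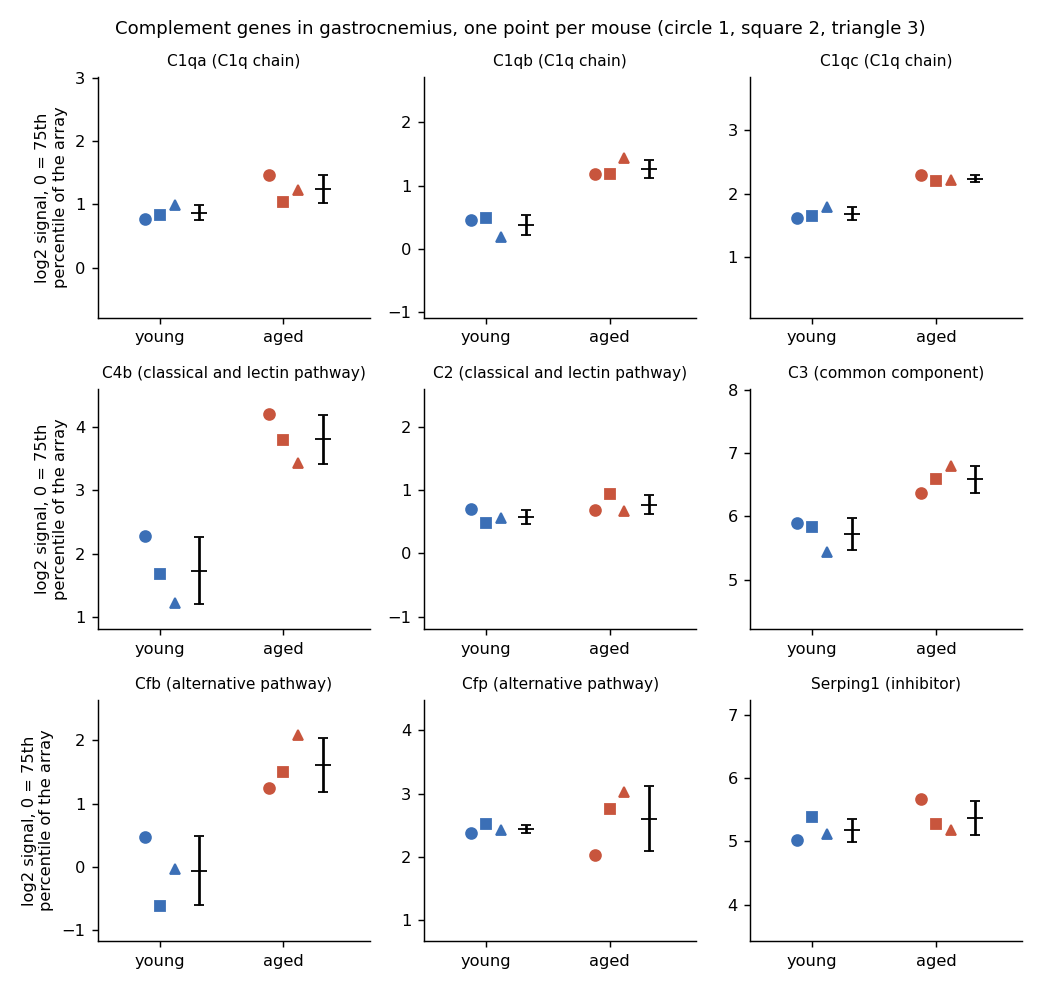
Log2 signal of each complement gene (vertical axis, 0 is the 75th percentile of the array, every panel spans the same number of log2 units) in the 3 young (blue) and 3 aged (red) mice, with circle, square and triangle for mouse 1, 2 and 3 of a group and bars for the mean and SD. The groups are apart for C1qa, C1qb, C1qc, C4b, C3 and Cfb and overlap for C2, Cfp and Serping1.

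The C1q genes lie side by side on chromosome 4 in the order C1qb, C1qc and C1qa, and all 3 were higher in aged mice. The log2 signal of C1qb was 0.46, 0.49 and 0.19 in the young mice and 1.18, 1.18 and 1.43 in the aged mice, each given in the order of mouse 1, 2 and 3. The groups were clearly apart, with a log2 change of 0.89 (standard error, SE, 0.17, with a limma adjusted p = 0.125). C1qc was 1.61, 1.65 and 1.80 in young mice and 2.30, 2.20 and 2.22 in aged mice, a log2 change of 0.55 (SE 0.15, limma adjusted p = 0.196). Its probe was printed 10 times on each array, and the standard error of the mean over unflagged spots of an array was 0.014 to 0.031, below the SD of 0.10 between young mice and 0.05 between aged mice. C1qa was 0.77, 0.84 and 0.998 in young mice and 1.47, 1.04 and 1.23 in aged mice. Aged mouse 2 was only just above young mouse 3, and the log2 change of 0.38 (SE 0.18) had an adjusted p of 0.390 from limma. The 3 chains are needed in equal number in the C1q protein, whereas their mean changes here ranged from 1.30-fold to 1.85-fold, with overlapping intervals. The level of a gene in whole muscle reflects the number of cells that express it and the RNA per cell, and these cannot be told apart.

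Promoter sequences were available in the RefSeq table (GRCm38.p6) for C1qb, C1qc, C3 and Cfp. The 250 bases before the start given in that table are shown for C1qb (chr4:136886201-136886450), C1qc (chr4:136892915-136893164) and C3 (chr17:57228137-57228386), all on the minus strand, because these genes had intervals above no change. In the RefSeq gene table C1qc begins further upstream, so that the last 22 bases of its stretch lie within the gene. The stretches are written 5′ to 3′ with motif matches in capitals.
C1qb: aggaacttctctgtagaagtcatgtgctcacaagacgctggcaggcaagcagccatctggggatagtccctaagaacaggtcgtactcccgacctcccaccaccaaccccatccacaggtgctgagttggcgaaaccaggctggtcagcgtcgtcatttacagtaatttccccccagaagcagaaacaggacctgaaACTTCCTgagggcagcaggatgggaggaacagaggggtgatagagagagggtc
C1qc: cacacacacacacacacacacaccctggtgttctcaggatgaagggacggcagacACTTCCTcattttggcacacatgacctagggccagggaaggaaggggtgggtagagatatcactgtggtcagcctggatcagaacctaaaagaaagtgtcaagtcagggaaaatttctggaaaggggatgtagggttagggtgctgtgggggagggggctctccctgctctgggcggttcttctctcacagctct
C3: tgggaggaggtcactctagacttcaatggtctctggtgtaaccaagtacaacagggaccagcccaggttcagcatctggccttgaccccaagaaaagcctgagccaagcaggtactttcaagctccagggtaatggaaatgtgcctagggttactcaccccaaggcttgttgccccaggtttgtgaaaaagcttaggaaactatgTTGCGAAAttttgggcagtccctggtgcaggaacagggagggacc
None of the 4 promoters held the STAT-type motif TTCNNNGAA, the interferon-response-type motif (TTTC, any 2 bases, TTTC), the NF-kB-type motif (GGGA, any 2 bases, TTCC) or the C/EBP-type palindrome TTGCGCAA on either strand, which 7.02%, 2.98%, 1.21% and 0.164% of the 32851 promoters in the table held. After the sequences were read, AGGAAGT, the core bound by ETS factors such as PU.1, and the looser C/EBP-type motif TTGCGNAA, which also covers TTGCGCAA, were searched as well. AGGAAGT lay on the opposite strand in C1qb and C1qc, with its match starting 53 and 195 bases before the start in the promoter table (173 bases before that of the gene table for C1qc), and 7.69% of all promoters held it. TTGCGNAA lay 45 bases before the start of C3, and 0.67% of all promoters held it. All matches in capitals belong to these later motifs. Because they were picked after reading, their shares cannot show whether these promoters hold them more often than others. A match is a string of letters and no evidence of binding.

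C4b encodes C4, which is cleaved by the C1 complex and binds to its target, and it showed the largest change of the 9 genes. Its log2 signal was 2.28, 1.68 and 1.23 in young mice and 4.21, 3.79 and 3.43 in aged mice. The lowest aged mouse was more than 1 log2 unit above the highest young mouse, although the young mice spread over a similar distance. The log2 change was 2.08 (SE 0.32, limma adjusted p = 0.0753), higher than that of 99.4% of all genes tested. Over the alternative settings its adjusted p ranged from 0.0496 to 0.257, and it passed the threshold only with a mean-variance trend in the test. The mouse genome also holds C4a, a close copy of C4b, for which no probe was matched, so that signal from the copies cannot be told apart.

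C2, which encodes the protease partner of C4, was 0.70, 0.47 and 0.56 in young mice and 0.69, 0.94 and 0.68 in aged mice. Only aged mouse 2 was above every young mouse, and the log2 change of 0.19 (SE 0.16, limma adjusted p = 0.614) was 0.11 without that mouse. C2 and Cfb are neighbouring genes on chromosome 17 and encode related proteases, yet their changes differed in size, with log2 intervals of -0.19 to 0.58 for C2 and 0.87 to 2.47 for Cfb. The difference between both changes was not tested.

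C3, on which all complement pathways converge, was 5.90, 5.83 and 5.44 in young mice and 6.37, 6.58 and 6.79 in aged mice. The groups did not overlap, and young mouse 3 was the lowest. The log2 change was 0.86 (SE 0.20, limma adjusted p = 0.159). The standard error of the mean over the 10 spots of its probe on an array was 0.012 to 0.025, well below the SD of 0.25 between young mice and 0.21 between aged mice, so that spot error was small beside the spread between mice. Another C3 probe gave 4.05, 3.88 and 3.27 in young mice and 4.31, 4.63 and 4.95 in aged mice. It placed the mice in the same order and had a log2 change of 0.89.

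In the alternative pathway, Cfb and Cfp behaved differently. Cfb, whose protein carries the C3-cleaving activity of that pathway, was 0.47, -0.62 and -0.04 in young mice and 1.24, 1.50 and 2.08 in aged mice. The groups were apart and the log2 change was 1.67 (SE 0.34, limma adjusted p = 0.136), higher than that of 99.0% of all genes tested. Cfp, whose protein stabilizes the alternative pathway enzyme, was 2.38, 2.52 and 2.43 in young mice and 2.03, 2.77 and 3.03 in aged mice. The young mice lay close together (SD 0.07), while aged mouse 1 was below and aged mice 2 and 3 above all of them. Its log2 change of 0.16 (SE 0.27, limma adjusted p = 0.805) was -0.047 without aged mouse 3 and 0.45 without aged mouse 1.

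Serping1, the inhibitor of the group, was 5.02, 5.38 and 5.12 in young mice and 5.67, 5.27 and 5.17 in aged mice. Only aged mouse 1 was above every young mouse. The log2 change was 0.20 (SE 0.20, limma adjusted p = 0.669), and 0.050 without aged mouse 1. Another Serping1 probe gave 3.42, 3.53 and 2.001 in young mice and 3.93, 3.60 and 3.23 in aged mice, a log2 change of 0.60 with overlapping groups, in which young mouse 3 was far below the other mice. The probes thus differed in the place of young mouse 3, and neither separated the groups.

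**Figure D2:**
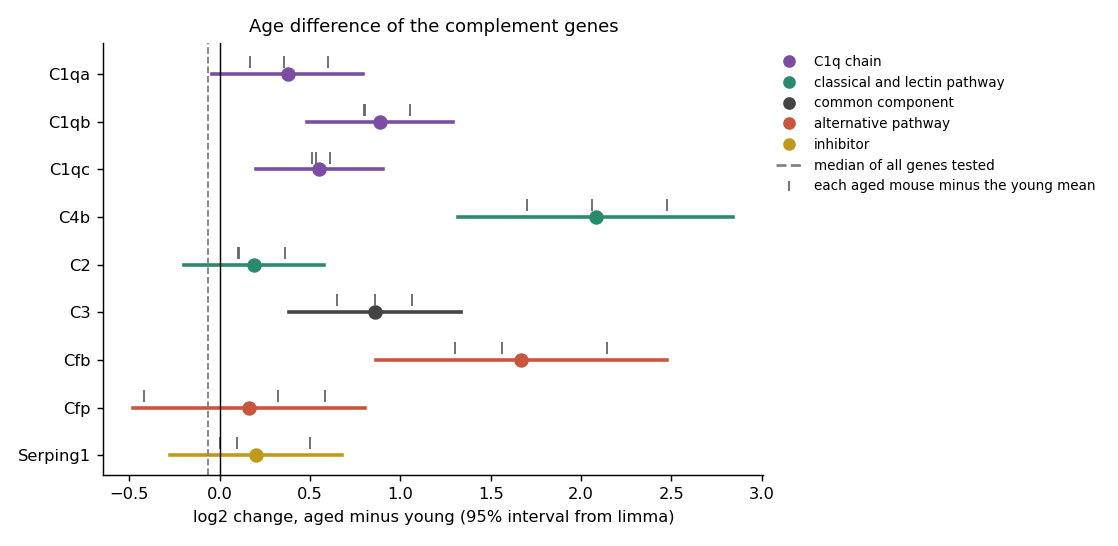
Log2 change (aged minus young, horizontal axis) of each complement gene with its 95% interval from limma, coloured by role, with short grey lines for each aged mouse minus the mean of the young mice and a dashed line for the median of all genes tested (-0.06). The intervals of C1qb, C1qc, C4b, C3 and Cfb lie above 0, and 1 mark of Cfp, that of aged mouse 1, lies below the dashed line.

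The aged mouse with the highest value was not the same for every gene. It was aged mouse 1 for C1qa, C1qc, C4b and Serping1, aged mouse 3 for C1qb, C3, Cfb and Cfp, and aged mouse 2 for C2. C4b was 2.48, 2.06 and 1.70 above the mean of the young mice in aged mice 1, 2 and 3, whereas Cfb was 1.30, 1.56 and 2.14 and C3 was 0.65, 0.86 and 1.07 above it. In aged mouse 1, which shared a slide row with the young mice, C1qb, C3, Cfb and Cfp were thus at their lowest among aged mice, and C1qa, C1qc, C4b and Serping1 at their highest. With the row as a block, which compares aged mouse 1 alone with the young mice, 8 of the 9 genes were higher, Cfp was lower (log2 change -0.42), and none passed the threshold in limma, while 5 were higher with an unadjusted p under 0.05, where 4.85% of all genes were in that fit. Row and mouse cannot be told apart here.

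**Figure D3:**
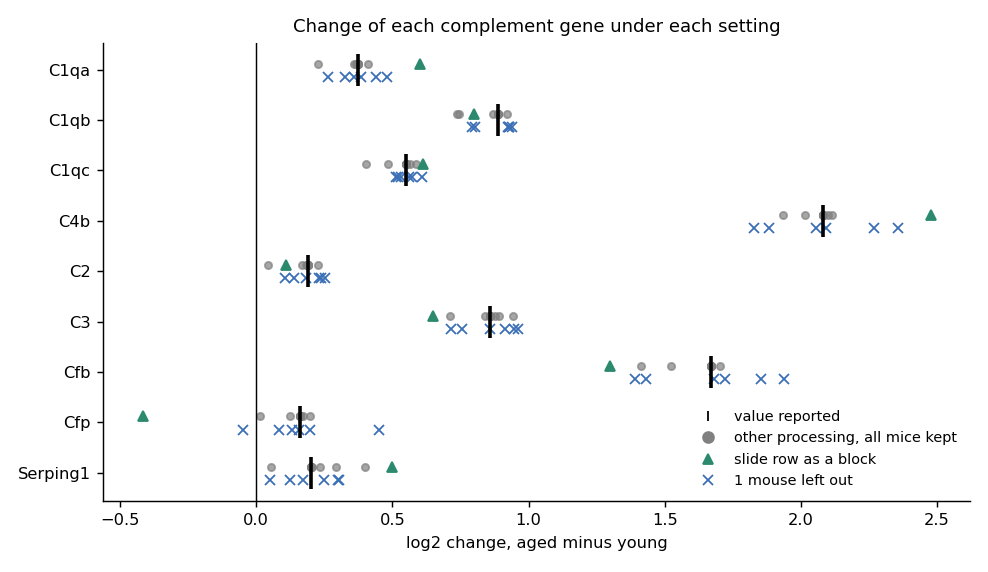
Log2 change (aged minus young, horizontal axis) of each complement gene as reported (black bar), under other ways of processing with all mice kept (grey circles), with the slide row as a block (green triangles) and with 1 mouse left out (blue crosses). Every value lies above 0 except 2 of Cfp, with the row as a block and without aged mouse 3.

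A list of 50 other complement genes, covering proteases, the terminal pathway, regulators and receptors, was also measured. Of these, 32 were tested, 17 had probes too dim to be tested and 1 (C4a) had no matched probe. The mean of 17 was higher and that of 15 lower in aged mice, with a median log2 change of 0.13. None passed the adjusted threshold in limma (0 of 32), whereas 4 were higher and 2 lower at an unadjusted p under 0.05, where 6.07% and 8.38% of all genes were. Every aged mouse was above every young mouse for 4 genes and below for 2, where 7.92% and 13.9% of all genes had these patterns. Cpn1, which was bright enough to be tested only through the aged arrays, is in both counts of 4. Itgax and C5ar1, well above background on 1 and 2 young arrays, also needed aged arrays to be tested. Itgax is in the first count of 4 and C5ar1 in both.

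The 6 genes of the list with groups that did not overlap had different roles. Cpn1, the catalytic chain of the carboxypeptidase that inactivates C3a and C5a, was well above background on 3 aged and 0 young arrays, and was at least 2.07-fold higher in aged mice. This bound sets the 3 dim arrays at the lowest signal that was well above background. Cpn1 entered the test only through its aged arrays, so that its p-value is no support and is left out. C5ar1, the C5a receptor of myeloid cells, was -4.41, -3.25 and -3.49 in young mice and -2.99, -3.10 and -1.89 in aged mice, and was well above background on 2 of the 3 young arrays. C1rl, related to the protease C1r, had a log2 change of 0.48 and C7 of the terminal pathway of 0.34. Vtn, encoding vitronectin, which restrains the terminal pathway, was 2.14, 1.97 and 2.56 in young mice and 1.73, 1.61 and 1.50 in aged mice (log2 change -0.61, adjusted p = 0.264 from limma). Cd93, found on endothelial and myeloid cells, had a log2 change of -0.53. The proteases that partner C1q had log2 changes of 0.16 for C1ra, -0.10 for its copy C1rb, -0.14 for C1s1 and -0.027 for its copy C1s2, all with overlapping groups. The regulators Cd55 (0.24), Cd59a (0.29) and Cr1l (-0.041) and the alternative pathway protease Cfd (-0.34) also overlapped between the groups. Larger changes with overlapping groups were those of Itgax (1.31), Vsig4 (1.26), Itgb2 (0.76) and Fcna (0.75). The lowest change with overlapping groups was that of C8g (-0.46).

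**Figure D4:**
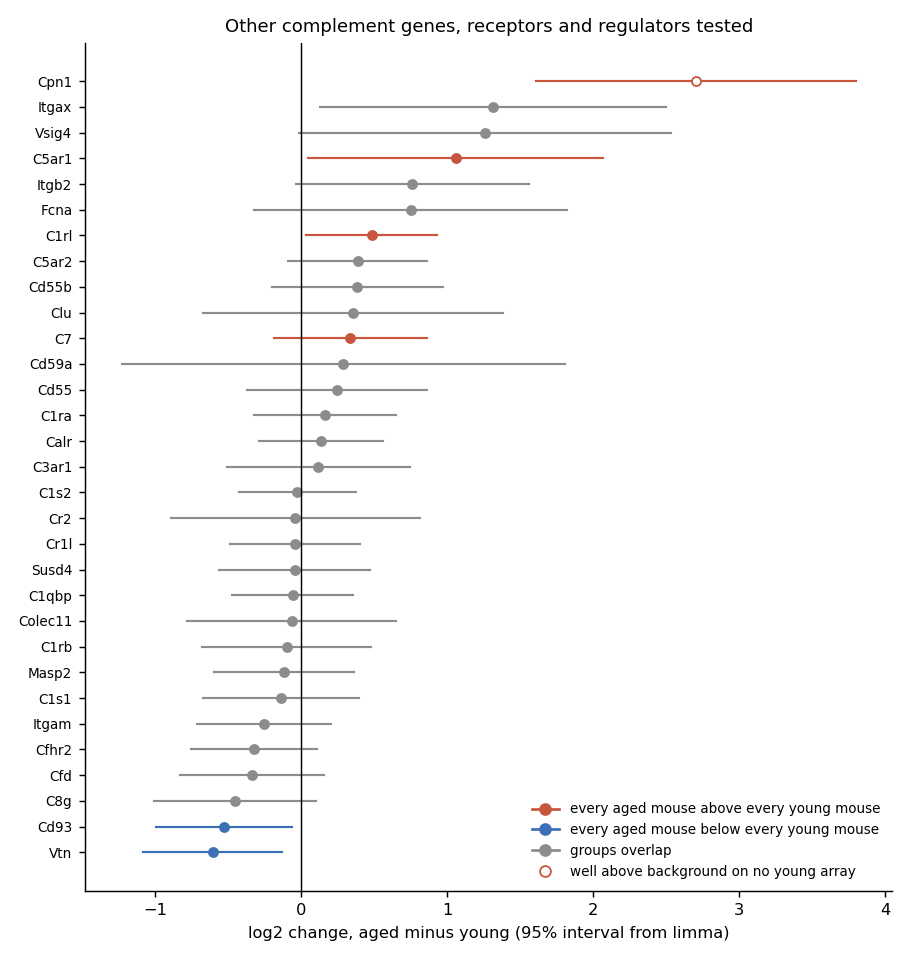
Log2 change (aged minus young, horizontal axis) with 95% interval from limma of other complement genes tested, in red where every aged mouse was above every young mouse (4 genes), in blue where every aged mouse was below (2 genes) and in grey where the groups overlapped. The open circle marks Cpn1, whose value in young mice is only a bound, and most intervals include 0.

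Markers of cell types that could carry complement RNA differed in direction, and their part in the differences above was not tested. Of 12 macrophage genes, 11 were tested, 9 were higher and 2 lower in aged mice, with a median log2 change of 0.64, none past the adjusted threshold in limma, 4 higher at an unadjusted p under 0.05 (6.07% of all genes) and 5 with every aged mouse above every young mouse (7.92% of all genes). Their summed signal was 22.3 to 23.7 times the 75th percentile in young mice and 25.5 to 30.1 times in aged mice, and without Csf1r, the brightest, 9.04 to 10.6 and 12.9 to 18.5. Cd163 was well above background on no array, and Fcgr1 on 0 young and 3 aged arrays. Fcgr1 thus entered the test only through the aged mice, and it is in these counts and the median. Its change is only a bound, at least 2.14-fold. Cd68 had a log2 change of 1.08 with groups apart, but Csf1r one of -0.053 with groups overlapping. Of 12 fibroblast genes, all tested, 10 were lower and 2 higher (median log2 change -0.54). At an unadjusted p under 0.05, 5 were lower (8.38% of all genes), and for 6 the aged mice all lay below the young mice (13.9% of all genes). Their summed signal was 595.9 to 660.8 in young mice and 320.6 to 441.0 in aged mice. Dcn and Gsn, which encode the matrix protein decorin and the actin-binding protein gelsolin, had log2 changes of -0.85 and -0.63.

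The other lists differed as well. Of 12 neutrophil genes, 6 were tested, 4 were higher and 2 lower. Their summed signal was 156.7 to 161.3 in young mice and 169.1 to 199.0 in aged mice, but Csf3r alone gave 85.1% to 99.1% of it, and without Csf3r it was 1.40 to 1.95 and 17.0 to 25.2. S100a8 and S100a9 were the 2 past the adjusted threshold (log2 changes 4.80 and 4.70), where 0.196% of all genes were called higher. Csf3r had a log2 change of 0.052, and whether its signal comes from neutrophils was not tested. The 2 lower genes were Camp (log2 change -0.40) and Elane (-0.31), both with every aged mouse below every young mouse (13.9% of all genes). Retnlg, counted as higher, was well above background on 0 young and 3 aged arrays. Retnlg thus entered the test only through the aged mice, and its change is only a bound, at least 8.23-fold. Mpo and Ngp were well above background on no array. All 5 erythrocyte genes tested were lower in aged mice, Hba-a2 (log2 change -0.91) and Hba-a1 (-1.20) among them. Their summed signal was 634.4 to 921.1 in young mice and 288.8 to 458.7 in aged mice. Of the 5, 4 had an unadjusted p under 0.05 in limma, where 8.38% of all genes were lower with such a p. Of 6 adipocyte genes tested, 5 were lower (median log2 change -0.23, summed signal 101.2 to 110.4 in young mice and 81.3 to 102.7 in aged mice), with -0.22 for Fabp4, which gave 81.3% to 89.2% of the sum, and -0.054 for Cidec. Of 7 hepatocyte genes, 5 were too dim to be tested, Apoa1, Fga and Ttr were well above background on no array, and Alb on 1 aged array only. Trf and Serpina1a were tested and had log2 changes of 0.48 and 3.15, the last from a family of close copies and well above background on 2 of the 3 young arrays, so that its change is imprecise (SE 0.93). Their summed signal was 6.71 to 10.5 in young mice and 10.3 to 16.6 in aged mice, of which Trf gave 89.5% to 99.7%. Of the 9 muscle fibre genes tested, 8 were lower (median log2 change -0.17), with -0.17 for Pvalb and -0.27 for Tnnt3.

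**Figure D5:**
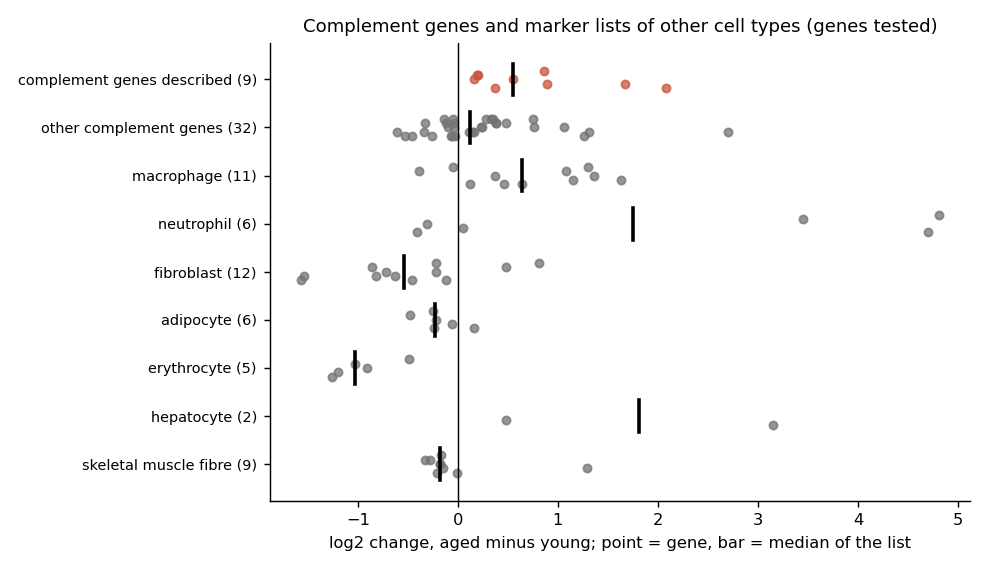
Log2 change (aged minus young, horizontal axis) of every tested gene of the 9 complement genes (red) and of the other lists (grey), with the number tested in brackets and a black bar for the median of the list. The complement genes (median 0.55) and the macrophage genes (median 0.64) lie mostly above 0 and the fibroblast (median -0.54) and erythrocyte genes (median -1.03) mostly below.

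The genes with a profile closest to that of the C1q genes were sought over the 6 arrays by the root mean square difference of log2 deviations from the mean of the young mice. The 5 closest outside the 9 genes were Mcm6 (0.0606), Zkscan6 (0.0821), Ptpn9 (0.0824), Eef1akmt4 (0.0835) and Nckap1l (0.0875). Their log2 changes ranged from 0.51 for Zkscan6 to 0.65 for Nckap1l. With 6 arrays and 13843 named genes, a close profile alone shows no link between genes. The search was made for the C1q profile only.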

How the data were processed

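Cy3-labelled total RNA of each mouse was hybridized to its own array. The deposited intensity values are the authors' Agilent Feature Extraction output (version 11.0.1.1 in the file header, 9.5 in the submitters' processing notes). The processed signal is background-subtracted and detrended within the array and not scaled between arrays. The median spot and background intensity, also deposited, was used for an alternative, and the series matrix held the same signals (largest log2 difference 0). No test for the arrays is given in the sources used here.

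Of 62976 spots, 59305 were not controls. Flagged spots (161 to 212 per array) were left out, log2 signals of 55681 probes were averaged over spots, and each array was scaled by subtracting its 75th percentile. Accessions were matched without version to RefSeq (GRCm38.p6), which named 28331 probes. Probes had to be well above background on 3 or more arrays, with the brightest probe representing a gene. Age groups were tested in limma 3.58.1 (R 4.3.3) with lmFit and eBayes, a fit checked on simulated data with 200 changed genes among 20900. The number of arrays limits the precision.

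The members and lists were chosen with earlier results of these data known. Named were the 9 genes, of the other complement genes those past the threshold and the 6 with the largest change and no overlap, the genes with the 2 brightest probes of each marker list and the 5 with the closest profile to C1q. The other complement genes given with overlapping groups were named beside these after their values were seen. So were S100a8, Fcgr1, Retnlg, Camp, Elane and the marker genes given as well above background on no array or on 1 array. The values of 1 of the other complement genes are not reported or plotted by name here. Alternatives are given at the end.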

Additional observations from a re-analysis of the deposited data

How the results depend on the processing

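All 17 alternatives were planned, and slide or scan as a block could not be fitted because there was 1 of each. Of the 9 complement genes, 8 were higher in aged mice under every alternative, and Cfp was lower with the slide row as a block (-0.42) and without aged mouse 3 (-0.047, against 0.45 without aged mouse 1). None passed the threshold under any alternative except C4b with a mean-variance trend, which gave 1 gene (adjusted p = 0.0496 from limma). At an unadjusted p under 0.05, between 4 and 6 were higher, where 3.14% to 7.36% of all genes were. The median log2 change of 0.55 was 0.48 under normexp, 0.40 with median scaling, 0.61 with the row as a block, and between 0.52 and 0.61 without 1 mouse. Median scaling moved the median of all genes from -0.06 to -0.21, and the median of the 9 genes relative to it was 0.61 in both. Of the other complement genes, 0 passed the threshold under every alternative. Over all genes, the 53 calls became 8 with no filter on dim probes, 35 when a probe had to be well above background on every array, and between 1 and 199 without 1 mouse. The 199 came without aged mouse 1, where age and slide row cannot be told apart. The split of 41 higher and 12 lower became 26 and 16 with median scaling. With the replicate number as a block there were 5 calls and none of the 9 genes. No pairing of same-numbered mice is named in the labels. Their deviations correlated between -0.27 and 0.03, and 0 of 3 aged mice correlated best with their own number. So few mice cannot decide whether they are paired. Signal over background limits the dim genes, such as Cpn1, to a bound.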
